A study of Mus musculus with 15 samples.

Results

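The genes of cholesterol synthesis and of fatty acid synthesis were followed in MPI cells, self-renewing mouse macrophages (Max Planck Institute cells) cultured in the presence of GM-CSF, a growth factor of macrophages. The set was a list of 38 genes, chosen with earlier results of these data known. Of these, 37 are among the 10653 genes of the expression table. They are 26 genes of cholesterol synthesis and its SREBP regulators, and 11 of the 12 listed genes of fatty acid synthesis, elongation and desaturation. Me1 is not among the genes of the table. No gene of the table has a highest group mean under 0.5003 FPKM, so genes low in every group may be missing from it. All 37 passed the filter on low values, for which a gene had to reach 0.5 FPKM in 3 or more libraries. Acss2 passed only through the 6 riebeckite libraries, so it had to differ between groups, and it is described with no test and left out of the counts below. The cells come from fetal liver of female C57BL6/J mice, carry no stated genetic change, and were sampled after 24 h in 5 groups of 3 libraries. The first group was untreated. Riebeckite was given at 9 µg/cm² as asbestos or at 40 µg/cm² as cleavage fragments, and tremolite at 5 µg/cm² as asbestos or at 60 µg/cm² as cleavage fragments. Riebeckite and tremolite are amphibole minerals, asbestos is their habit of thin fibres, and cleavage fragments (below, fragments) are elongated pieces of the same mineral that are not asbestiform. Doses were matched by particle surface area, so the mass given differed between all 4 treatments. The titles call the controls untreated, while a description that all samples share speaks of a vehicle control. Whether replicate libraries are from separate cultures is not in the labels, so the p-values reflect only how far these samples spread, and that spread may be technical.

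Cholesterol is built from acetyl-CoA through mevalonate, isoprenoid diphosphates, squalene and lanosterol, and fatty acids are built from acetyl-CoA through malonyl-CoA and then elongated and desaturated. Transcription of both pathways is driven by the SREBP factors (Srebf1 and Srebf2). Scap carries them from the endoplasmic reticulum to the Golgi apparatus for cleavage by the proteases Mbtps1 and Mbtps2, and the Insig proteins hold Scap back when sterols are plentiful. The liver X receptors, which sense oxysterols, also raise Srebf1 and several fatty acid genes. In macrophages these pathways supply membrane, set how saturated the phospholipids are, and yield intermediates that act on inflammatory genes.

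Promoter windows of RefSeq (GRCm38.p6, 250 bases before to 50 after the start of each gene) were matched by symbol for 31 of the 38 listed genes, 22 of the sterol and 9 of the fatty acid list. Fdps, Fdft1, Sqle, Stard4, Scd1, Scd2 and Fads1 were not matched. Stretches of 5 promoters, chosen after values and matches were seen, are shown as examples and not as the members that changed most. Hmgcs1 is the member with a TCACNCCAC match, Mvd and Hsd17b7 are members that were higher with riebeckite and hold CCAAT, Insig1 was lower with all 4 treatments, and Elovl6 had the largest fall. Each stretch is cut to lie before the transcribed part and runs 5′ to 3′ on the strand of the gene. Capitals mark the letters CCAAT on either strand (ATTGG on the other), the box bound by NF-Y, and in Hmgcs1 also TCACCCCAC, a match to TCACNCCAC, the letters of the sterol regulatory element. The positions are chr13:119690101-119690350 (plus strand) for Hmgcs1, chr8:122443423-122443672 (minus) for Mvd, chr1:169969242-169969408 (minus) for Hsd17b7, chr5:28071162-28071362 (plus) for Insig1 and chr3:129532136-129532256 (plus) for Elovl6.
Hmgcs1: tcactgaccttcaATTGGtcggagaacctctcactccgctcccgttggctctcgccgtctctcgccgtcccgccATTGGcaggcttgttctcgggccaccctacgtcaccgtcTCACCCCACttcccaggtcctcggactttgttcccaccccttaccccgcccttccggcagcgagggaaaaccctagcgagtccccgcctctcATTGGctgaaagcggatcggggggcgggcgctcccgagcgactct
Mvd: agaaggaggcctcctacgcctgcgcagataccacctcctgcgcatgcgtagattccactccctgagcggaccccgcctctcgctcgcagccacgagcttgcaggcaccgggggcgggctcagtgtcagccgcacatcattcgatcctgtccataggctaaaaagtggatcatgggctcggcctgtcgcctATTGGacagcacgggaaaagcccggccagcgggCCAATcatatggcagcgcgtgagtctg
Hsd17b7: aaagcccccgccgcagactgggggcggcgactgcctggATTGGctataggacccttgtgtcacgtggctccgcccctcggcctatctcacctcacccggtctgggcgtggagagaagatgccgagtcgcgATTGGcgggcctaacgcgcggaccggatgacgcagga
Insig1: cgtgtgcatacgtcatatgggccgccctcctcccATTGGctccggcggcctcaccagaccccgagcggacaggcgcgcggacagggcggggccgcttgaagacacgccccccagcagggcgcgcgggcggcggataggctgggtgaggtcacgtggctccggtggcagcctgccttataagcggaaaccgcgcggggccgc
Elovl6: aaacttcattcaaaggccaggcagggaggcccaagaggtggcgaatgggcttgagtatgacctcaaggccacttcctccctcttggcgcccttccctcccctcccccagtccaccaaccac
The Hmgcs1 stretch holds 3 CCAAT boxes, those of Mvd and Hsd17b7 hold 2 each, that of Insig1 holds 1 and that of Elovl6 holds 0. Over the whole windows of 300 bases, CCAAT on either strand was found for 18 of 22 sterol genes and 6 of 9 fatty acid genes, against 43.4% of the 8391 table genes with a window and 37.4% of all 32851 windows. GGGCGG, the letters bound by Sp1, was found for 20 of 22 sterol and 5 of 9 fatty acid genes, against 69.7% of table genes. The E-box CACGTG was found for 5 of 22 and 1 of 9, against 12.5%. TCACNCCAC was found for Hmgcs1 alone, against 1.37% of table genes, and its longer classical form, whose matches overlap it, for 0 of the 31. The liver X receptor element, a direct repeat spaced by 4 bases and matched as exact letters, was found for 0 of the 31. It was also found for 0 of the 8391 table genes and in 5 of all 32851 windows. The longer classical form above was found for 0.0477% of table genes. Both are so rare that these counts of 0 cannot tell whether the 31 genes lack such elements. These counts describe letters in a short window, not binding.

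The libraries were close in summed FPKM, while marker genes and the mitochondrial share differed between groups. Each library's FPKM summed to 257329 to 273570, and the number of reads behind the values is unknown. All 9 macrophage markers and all 9 alveolar macrophage markers checked (among them Adgre1, Csf1r, Siglecf, Marco and Pparg) are in the table, and none of the 6 hepatocyte, 5 alveolar epithelial and 4 erythroid markers is. Of 4 adipocyte markers Plin1 and Cidec are in the table, with a summed level of 1.68 to 1.87 FPKM in untreated, 2.24 to 2.50 in riebeckite asbestos, 2.45 to 3.32 in riebeckite fragment, 1.71 to 2.13 in tremolite asbestos and 2.02 to 2.71 in tremolite fragment libraries. Adipoq and Lep are not in the table. For all markers missing from the table, absence can mean a low level in every group and not a lack of expression. The macrophage markers summed to 4854 to 5324 FPKM in untreated, 5780 to 6029 in riebeckite asbestos, 6097 to 6561 in riebeckite fragment and 4868 to 5678 in tremolite libraries. The sum rests mostly on Lyz2 (means of 4066 and 4698 FPKM in untreated and riebeckite asbestos libraries), and the 9 markers were called in both directions, 4 higher and 3 lower with riebeckite asbestos, 3 and 2 with riebeckite fragments, 3 and 2 with tremolite asbestos and 4 and 2 with tremolite fragments. The alveolar macrophage markers summed to 4987 to 5262 FPKM in untreated and 4356 to 4661 in riebeckite asbestos libraries, and to 4910 to 5461 in the others. The lower sum rests on Chil3 (means of 2629 and 1752 FPKM) and Ear2 (758 and 570 FPKM), while 5 of these 9 markers were higher and 3 lower with riebeckite asbestos, 6 and 2 with riebeckite fragments, 5 and 1 with tremolite asbestos and 6 and 0 with tremolite fragments. Siglecf had a mean of 10.7 FPKM in untreated libraries, 49.6 and 55.4 with riebeckite asbestos and fragments, and 27.4 and 38.4 with tremolite asbestos and fragments. The macrophage marker Fcgr1 went the other way, from 25.7 FPKM to 11.4, 12.2, 19.65 and 15.5 in the same order. Mitochondrially encoded genes made up 8.54 to 8.86% of FPKM in untreated, 6.08 to 6.90% in riebeckite asbestos and 7.46 to 8.62% in the other libraries. The part of these differences in the results below was not tested. In bulk RNA, fewer cells of a type and less RNA per cell cannot be told apart.

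Of the 26 cholesterol synthesis and SREBP genes, most that passed the test below with riebeckite were higher, and most that passed with tremolite were lower. With tremolite the share that passed was near that of all genes, and Idi1, Insig1 and Stard4 fell with riebeckite too. The 26 members summed to 581 to 623 FPKM in untreated libraries, 666 to 673 with riebeckite asbestos, 659 to 664 with riebeckite fragments, 558 to 575 with tremolite asbestos and 572 to 576 with tremolite fragments. The riebeckite libraries all lay above the untreated ones, also after TMM rescaling (665 to 676 against 569 to 616), a description with no test. The tremolite libraries all lay below the untreated ones as deposited, but after TMM rescaling they were at 567 to 576 and overlapped them. Tests were made with limma on log2(FPKM + 1), with p-values adjusted by the Benjamini-Hochberg method over all 10616 genes tested and a threshold of 0.05. Fold changes on this scale understate the change of genes near 1 FPKM.

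Against untreated cells, 12 sterol members were higher and 3 lower with riebeckite asbestos, where 21.0% and 24.3% of all tested genes were. With riebeckite fragments 10 were higher and 3 lower (all genes, 15.3% and 23.1%). With tremolite asbestos 0 were higher and 6 lower (all genes, 10.0% and 13.9%). With tremolite fragments 1 was higher and 6 lower (all genes, 12.5% and 15%). In the same order, 57.7%, 50%, 23.1% and 26.9% of the sterol members were called in either direction, beside 45.3%, 38.4%, 23.9% and 27.5% of all genes. The list was chosen with earlier results of these data known, so these counts are a description. The median log2 fold change of the 26 members was 0.14, 0.17, -0.08 and -0.07 in that order, beside -0.02, -0.04, -0.03 and -0.02 over all genes. Of the 26 members, 16, 14, 8 and 12 had no overlap between the treated and untreated libraries, where 55.3%, 49.1%, 39.9% and 45.1% of all genes had none. These 4 comparisons share the 3 untreated libraries, so they are not independent of each other. Rescaling by TMM moved the split of all called genes from 39.9% to 52% higher for riebeckite fragments and from 41.8% to 54.2% higher for tremolite asbestos. Among the sterol members it gave 2 higher and 5 lower for tremolite fragments.

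**Figure D1:**
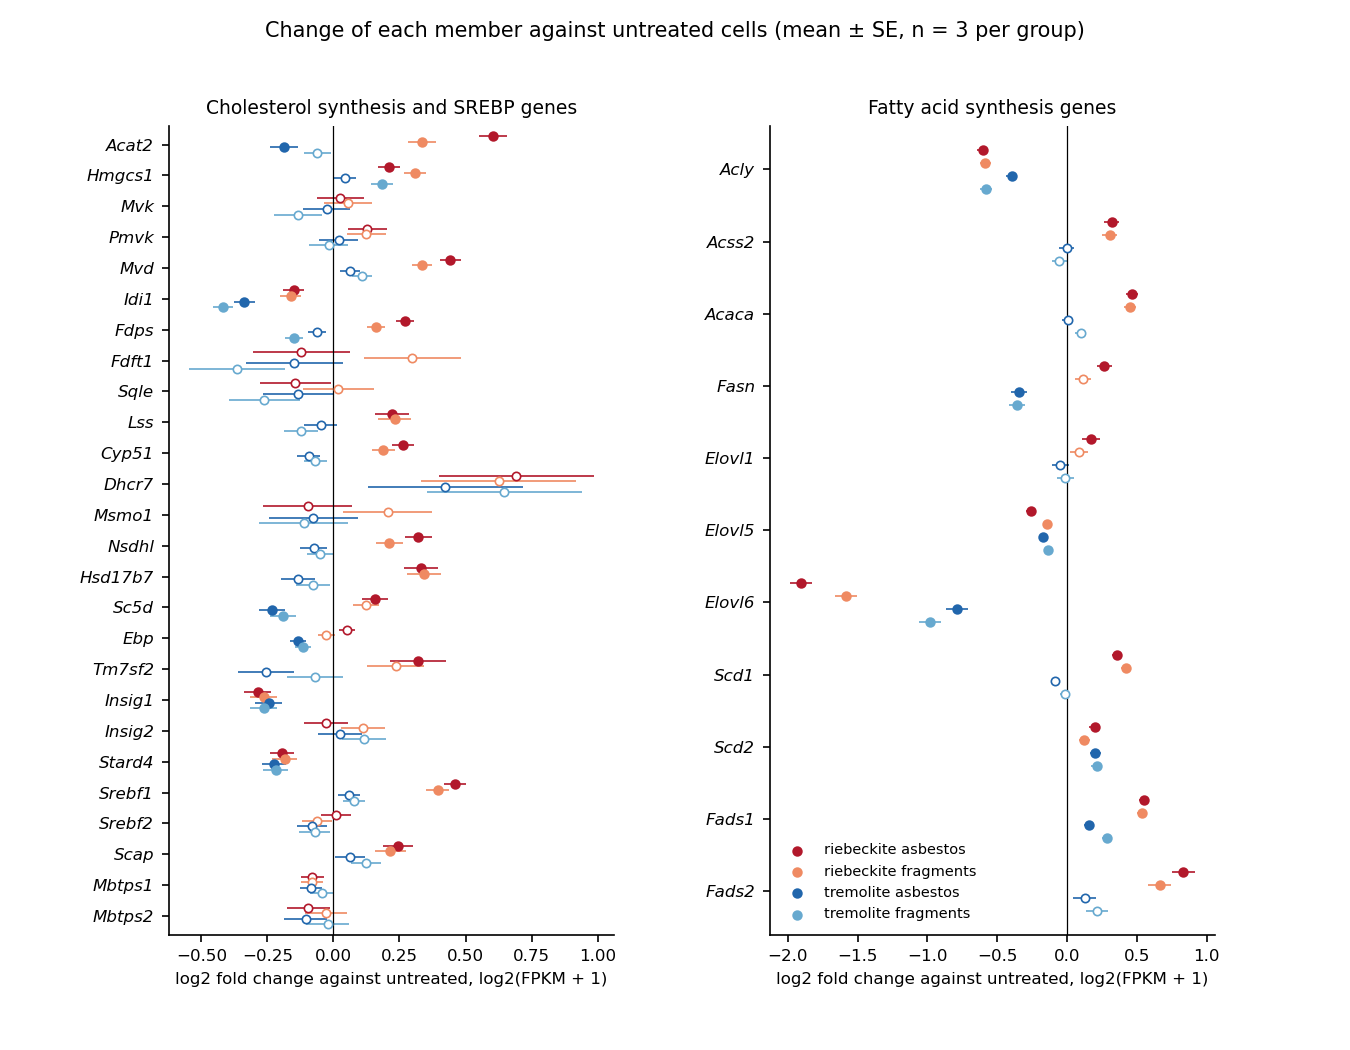
Log2 fold change of each member against untreated cells, on log2(FPKM + 1), with standard errors (n = 3 per group); filled points passed the threshold and open points did not. Left, the 26 sterol members; right, the 11 fatty acid members, where the points of Acss2 are a description. Riebeckite points lie to the right of tremolite points for Acat2 (0.60 and 0.34 against -0.19 and -0.06) and Srebf1 (0.46 and 0.39 against 0.06 and 0.08), while Elovl6 lies far to the left with every treatment (-1.90 to -0.79).

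Of the enzymes up to the decarboxylation of mevalonate diphosphate, Acat2, Hmgcs1 and Mvd rose with riebeckite. Acat2 (ENSMUSG00000023832.13, chr17:12942890-12960747, minus strand) encodes the cytosolic thiolase that joins acetyl-CoA units. Its level was 24.1, 24.5 and 24.8 FPKM in untreated libraries, 36.6, 40.4 and 36.2 with riebeckite asbestos, 32.1, 29.2 and 32.2 with riebeckite fragments, 22.1, 22.02 and 20.1 with tremolite asbestos and 24.2, 23.5 and 22.6 with tremolite fragments. All riebeckite asbestos libraries lay above all riebeckite fragment libraries, and these above all others. The log2 fold change was 0.60 ± 0.05 (SE, adjusted p = 8.0e-07) with riebeckite asbestos, 0.34 ± 0.05 (SE, adjusted p = 0.00022) with riebeckite fragments and -0.19 ± 0.05 (SE, adjusted p = 0.02) with tremolite asbestos. Acat2 has a near-identical copy, Acat3, listed at 0 to 5.17 FPKM, between which reads can be split uncertainly. With both summed, an alternative chosen after the data were seen, the values were 0.57 (adjusted p = 1.6e-05), 0.26 (adjusted p = 0.0090) and -0.18 (adjusted p = 0.077), so the fall with tremolite asbestos was no longer called. That fall was also lost with summed transcripts (adjusted p = 0.0541) and without untreated replicate 2 (adjusted p = 0.0553), untreated replicate 3 (0.0633) or tremolite asbestos replicate 3 (0.0874).

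Hmgcs1 (chr13:119690379-119708260, plus strand) encodes HMG-CoA synthase, the next enzyme, and is the member with a sterol regulatory element match above. Its level was 58.3, 57.4 and 56.1 FPKM in untreated libraries, 63.8, 67.6 and 67.9 with riebeckite asbestos, 68.1, 74.4 and 71.2 with riebeckite fragments, 57.2, 60.9 and 59.3 with tremolite asbestos and 68.4, 63.3 and 63.98 with tremolite fragments. It rose with both riebeckite preparations and with tremolite fragments, by 0.21 ± 0.04 (SE, adjusted p = 0.0011), 0.31 ± 0.04 (SE, adjusted p = 6.2e-05) and 0.18 ± 0.04 (SE, adjusted p = 0.0049). With tremolite asbestos the difference of 0.04 (adjusted p = 0.49) did not pass. Mvd (chr8:122433601-122443422, minus strand), the mevalonate diphosphate decarboxylase, was at 60.2, 57.7 and 57.7 FPKM in untreated libraries, 80.4, 79.1 and 80.3 with riebeckite asbestos, 72.1, 72.5 and 78.04 with riebeckite fragments, 59.9, 62 and 61.5 with tremolite asbestos and 60, 65.7 and 63.7 with tremolite fragments. All 6 riebeckite libraries lay above the other 9. It rose by 0.44 ± 0.04 (SE, adjusted p = 8.1e-07) and 0.34 ± 0.04 (SE, adjusted p = 1.5e-05) with the riebeckite preparations, while 0.06 (adjusted p = 0.28) and 0.11 (adjusted p = 0.055) with tremolite did not pass. The kinases between these steps, Mvk (5.89 to 8.34 FPKM over all libraries) and Pmvk (22.5 to 30.0 FPKM), passed in none of the 4 comparisons.

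The isoprenoid steps did not share 1 direction. Idi1 (chr13:8885501-8892451, plus strand), which turns isopentenyl into dimethylallyl diphosphate, was at 33.97, 32.5 and 32.9 FPKM in untreated libraries, 29.1, 30.7 and 29.5 with riebeckite asbestos, 29.9, 27.8 and 30.9 with riebeckite fragments, 25.5, 26.3 and 26.3 with tremolite asbestos and 25.2, 23.9 and 24.5 with tremolite fragments. It fell with all 4 treatments, with log2 fold changes of -0.42 ± 0.04 (SE, adjusted p = 4.1e-06) with tremolite fragments and -0.34 ± 0.04 (SE, adjusted p = 3.9e-05) with tremolite asbestos, and smaller ones with riebeckite, at -0.15 ± 0.04 (SE, adjusted p = 0.0071) and -0.16 ± 0.04 (SE, adjusted p = 0.0055). Fdps (chr3:89093588-89101959, minus strand), the farnesyl diphosphate synthase, was at 41.7, 40.6 and 38.1 FPKM in untreated libraries, 47.7, 48.2 and 49.9 with riebeckite asbestos, 45.7, 44.9 and 44.2 with riebeckite fragments, 38.1, 38.6 and 38.3 with tremolite asbestos and 37.1, 35.6 and 35.4 with tremolite fragments. It rose by 0.27 ± 0.03 (SE, adjusted p = 3.0e-05) with riebeckite asbestos and 0.16 ± 0.03 (SE, adjusted p = 0.0023) with its fragments, and fell with tremolite fragments, at -0.15 ± 0.03 (SE, adjusted p = 0.0055). Its exons share 1124 bases on the same strand with the gene model Gm43738, so reads there are uncertain.

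Squalene is made by Fdft1 and oxidized by Sqle, and neither passed against untreated cells. Fdft1, singled out after its values were seen, was at 20.5, 12.9 and 12.7 FPKM in untreated libraries, 13.3, 13.96 and 13.9 with riebeckite asbestos, 20.7, 21.9 and 14.4 with riebeckite fragments, 17.1, 11.5 and 12.4 with tremolite asbestos and 11.2, 11.4 and 11.7 with tremolite fragments. The untreated libraries spread widely, with 1 far above the others, as did the riebeckite fragment and tremolite asbestos libraries. Fdft1 shares 774 exonic bases with Ctsb on the opposite strand, which was listed at 286 to 393 FPKM. The library kit marks strand, but whether the counting used it is not given in the sources used here. Exons of Hmgcs1, Scap, Lss, Idi1, Cyp51 and Srebf1 overlap gene models of the opposite strand by 557, 985, 381, 323, 166 and 109 bases. Those of the fatty acid members Elovl1 and Elovl6 do so by 53 and 34 bases. Sqle ranged from 12.4 to 19.1 FPKM over the 15 libraries. Lss, the cyclase that makes lanosterol, was at 8.86 ± 0.375 FPKM (SD, n = 3) in untreated and 10.5 ± 1.17 FPKM in riebeckite asbestos libraries. Its rises of 0.22 (adjusted p = 0.012) and 0.23 (adjusted p = 0.011) with riebeckite were fragile. The first was lost without untreated replicate 3 (adjusted p = 0.0521) or riebeckite asbestos replicate 3 (0.0575), the other without untreated replicate 3 (0.0501). Summing the deposited transcripts turned the first to -0.37 (adjusted p = 0.564) and ended the call of the other (0.766). With only the groups compared in the fit the first was lost too (0.0646).

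Past lanosterol, the demethylation enzymes Cyp51, Nsdhl and Hsd17b7 rose with riebeckite. Cyp51 (chr5:4081145-4104746, minus strand), the lanosterol 14-demethylase, was at 42.5, 42.2 and 42.05 FPKM in untreated libraries, 49.2, 53.1 and 50.4 with riebeckite asbestos, 48.1, 47.9 and 48.8 with riebeckite fragments, 38.5, 42.8 and 37.5 with tremolite asbestos and 40.8, 39.4 and 40.6 with tremolite fragments. The 6 riebeckite libraries lay above the other 9. Its rises were 0.26 ± 0.04 (SE, adjusted p = 0.00025) and 0.19 ± 0.04 (SE, adjusted p = 0.0037), and the tremolite values of -0.09 and -0.07 did not pass. Nsdhl (chrX:72918557-72958514, plus strand), which removes the 4-carboxyl group, was at 22.9, 19.9 and 22.03 FPKM in untreated libraries, 27.1, 26.5 and 28.1 with riebeckite asbestos, 24.8, 25.7 and 24.9 with riebeckite fragments, 20.6, 21.5 and 19.4 with tremolite asbestos and 20.1, 20.7 and 21.5 with tremolite fragments. It rose by 0.32 ± 0.05 (SE, adjusted p = 0.00018) and 0.21 ± 0.05 (SE, adjusted p = 0.0048) with riebeckite. Hsd17b7 (chr1:169949535-169969241, minus strand), the ketosteroid reductase of the same complex, was at 5.14, 6.07 and 5.73 FPKM in untreated libraries, 7.14, 7.195 and 7.73 with riebeckite asbestos, 8.08, 7.31 and 6.92 with riebeckite fragments, 5.04, 5.404 and 4.73 with tremolite asbestos and 5.29, 5.22 and 5.36 with tremolite fragments. Each riebeckite library exceeded each other library. Its rises of 0.33 ± 0.06 (SE, adjusted p = 0.00099) and 0.34 ± 0.06 (SE, adjusted p = 0.00089) took it to 130% and 132% of the untreated mean. Msmo1, the methyl oxidase that acts before Nsdhl, ranged from 14.5 to 27.5 FPKM over the libraries and passed in no comparison.

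At the late steps some members fell with tremolite. Sc5d (chr9:42251595-42264256, minus strand), the lathosterol desaturase, was at 21.9, 24.3 and 22.3 FPKM in untreated libraries, 25.3, 24.8 and 26.5 with riebeckite asbestos, 24.7, 25.2 and 24.8 with riebeckite fragments, 18.05, 20.6 and 19.1 with tremolite asbestos and 20.1, 19.7 and 19.7 with tremolite fragments. It fell with tremolite asbestos and fragments, at -0.23 ± 0.05 (SE, adjusted p = 0.0033) and -0.19 ± 0.05 (SE, adjusted p = 0.0099). Summing transcripts ended both calls (adjusted p = 0.11 and 0.0786). Its rise of 0.16 (adjusted p = 0.017) with riebeckite asbestos was lost without untreated replicate 1 (adjusted p = 0.0685), untreated replicate 3 (0.0598) or riebeckite asbestos replicate 3 (0.0685). Ebp (chrX:8185329-8193512, minus strand), the sterol isomerase, was at 32.6, 31.9 and 33.8 FPKM in untreated libraries, 34.2, 34 and 33.8 with riebeckite asbestos, 31.3, 32.7 and 32.4 with riebeckite fragments, 29.99, 29.4 and 29.9 with tremolite asbestos and 31.2, 29.7 and 29.7 with tremolite fragments. It fell with tremolite asbestos, at -0.13 ± 0.03 (SE, adjusted p = 0.0066). With tremolite fragments the fall of -0.11 (adjusted p = 0.014) was lost under TMM rescaling (adjusted p = 0.0591), with only these groups in the fit (0.0616), and without untreated replicate 3 (0.0647), tremolite fragments replicate 2 (0.0578) or replicate 3 (0.0533). Tm7sf2, a sterol reductase, was low (2.06 to 4.38 FPKM) and shares 532 exonic bases with Vps51 on the same strand. Its libraries overlapped between riebeckite asbestos and untreated cells, and the rise of 0.32 (adjusted p = 0.026) was lost without untreated replicate 2 (0.076) or 3 (0.103) or riebeckite asbestos replicate 1 (0.115) or 3 (0.0869), with only the groups compared (0.084) and with summed transcripts (0.223). Dhcr7, which makes cholesterol in the last step and was singled out after its values were seen, was at 13.2, 12.2 and 6.06 FPKM in untreated libraries, 22.2, 20.2 and 10.3 with riebeckite asbestos, 11.2, 18.3 and 19.6 with riebeckite fragments, 13.8, 14.4 and 12.9 with tremolite asbestos and 15.4, 17.9 and 15.4 with tremolite fragments. The tremolite fragment libraries all lay above the untreated ones, and the libraries of the untreated group and of both riebeckite groups spread widely. Its log2 differences of 0.69 (adjusted p = 0.072), 0.63 (adjusted p = 0.11), 0.42 (adjusted p = 0.34) and 0.65 (adjusted p = 0.13) did not pass.

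Among the regulators, Srebf1 rose and Insig1 fell. Srebf1 (chr11:60199089-60222581, minus strand), which encodes SREBP-1, was at 15.3, 15.9 and 15.2 FPKM in untreated libraries, 22.4, 21.1 and 21.4 with riebeckite asbestos, 21.1, 19.5 and 21.3 with riebeckite fragments, 16.7, 15.5 and 16.4 with tremolite asbestos and 15.97, 16.5 and 16.7 with tremolite fragments. The 6 riebeckite libraries all exceeded the other 9. It rose by 0.46 ± 0.04 (SE, adjusted p = 1.5e-06) and 0.39 ± 0.04 (SE, adjusted p = 8.2e-06) with riebeckite, and the tremolite values of 0.06 (adjusted p = 0.35) and 0.08 (adjusted p = 0.19) did not pass. Srebf2 (chr15:82147266-82205376, plus strand), which encodes SREBP-2, the factor best known for the sterol branch, was at 26.6, 24.9 and 23.8 FPKM in untreated libraries, 26.5, 24.7 and 24.6 with riebeckite asbestos, 25.5, 21.9 and 24.7 with riebeckite fragments, 24.1, 23.7 and 23.2 with tremolite asbestos and 23.1, 25.3 and 23.2 with tremolite fragments. The groups overlapped, no comparison passed, and the 95% confidence interval of its log2 difference was -0.11 to 0.13 with riebeckite asbestos. Scap (chr9:110333288-110384950, plus strand), the SREBP escort, was at 6.06, 6.02 and 5.38 FPKM in untreated libraries, 7.55, 6.56 and 7.14 with riebeckite asbestos, 7.13, 6.78 and 6.83 with riebeckite fragments, 6.23, 6.19 and 5.92 with tremolite asbestos and 6.39, 6.83 and 6.06 with tremolite fragments. The riebeckite libraries lay above the untreated ones and overlapped those of tremolite fragments. It rose by 0.24 ± 0.06 (SE, adjusted p = 0.0037) and 0.22 ± 0.06 (SE, adjusted p = 0.0097) with riebeckite.

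Insig1 (chr5:28071363-28078662, plus strand), itself an SREBP target that retains Scap, was at 72.6, 68.4 and 68.4 FPKM in untreated libraries, 59.1, 56.7 and 55.5 with riebeckite asbestos, 62.9, 54.9 and 56.3 with riebeckite fragments, 58.2, 58.96 and 58.98 with tremolite asbestos and 54.4, 59.3 and 60.4 with tremolite fragments. Every treated library lay below every untreated library. The falls were -0.29 ± 0.05 (SE, adjusted p = 0.00053), -0.26 ± 0.05 (SE, adjusted p = 0.0012), -0.24 ± 0.05 (SE, adjusted p = 0.0035) and -0.26 ± 0.05 (SE, adjusted p = 0.0018), which left 81.8 to 84.2% of the untreated mean. Insig2 (chr1:121304353-121332589, minus strand), its paralogue, was at 6.94, 6.17 and 5.701 FPKM in untreated libraries, 5.68, 6.604 and 6.09 with riebeckite asbestos, 6.996, 6.39 and 7.18 with riebeckite fragments, 6.42, 7.07 and 5.72 with tremolite asbestos and 6.45, 6.696 and 7.48 with tremolite fragments. Its groups overlapped and no comparison passed. Stard4 (chr18:33199355-33213862, minus strand), a sterol carrier of the cytosol, was at 22.3, 23.8 and 23.04 FPKM in untreated libraries, 19.1, 19.9 and 20.99 with riebeckite asbestos, 19.6, 20.02 and 20.8 with riebeckite fragments, 18.8, 20.5 and 19.4 with tremolite asbestos and 18.7, 20.1 and 20.3 with tremolite fragments. Every treated library lay below every untreated library, and the falls ran from -0.23 ± 0.05 (SE, adjusted p = 0.0033) to -0.18 ± 0.05 (SE, adjusted p = 0.0069). Mbtps1 (7.10 to 8.09 FPKM) and Mbtps2 (3.99 to 5.36 FPKM), the proteases that release SREBPs, passed in no comparison, and Mbtps2 shares 2867 exonic bases with Yy2.

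**Figure D2:**
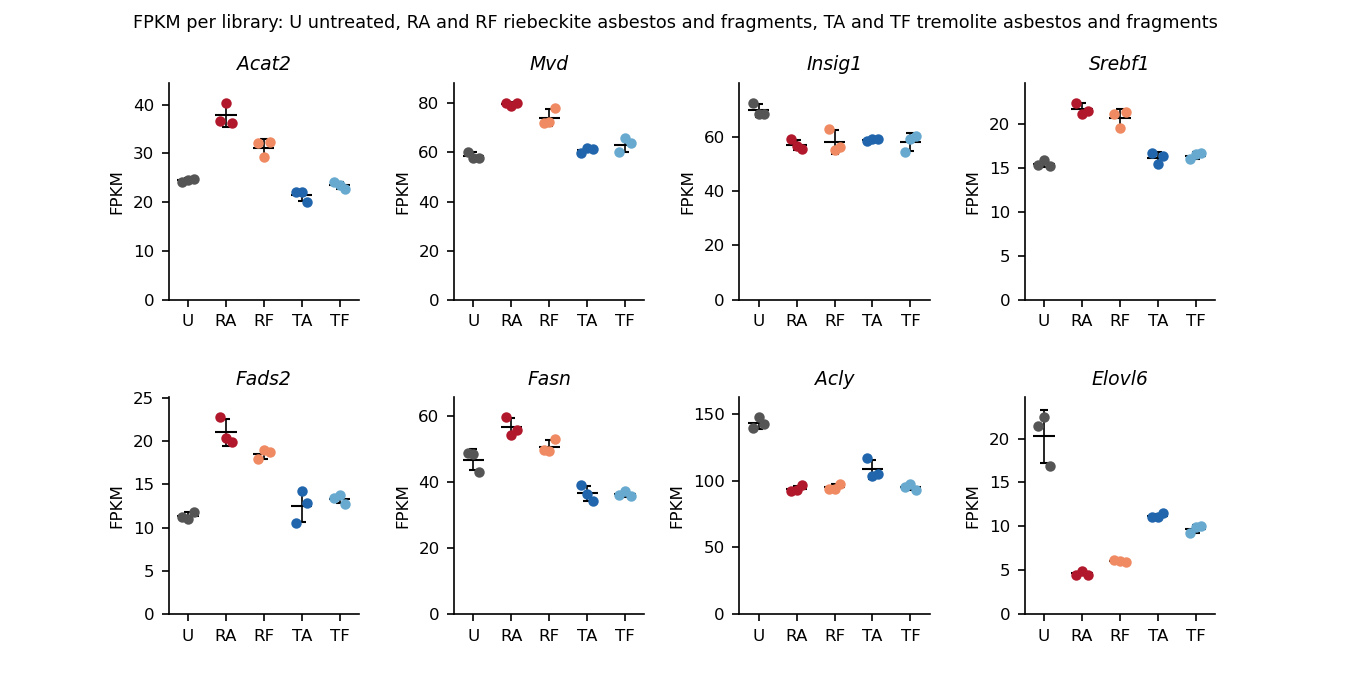
FPKM of 8 members in each of the 15 libraries, with axes from 0; points are libraries, long bars the group means and whiskers ± SD (n = 3). U is untreated, RA and RF riebeckite asbestos and fragments, TA and TF tremolite asbestos and fragments. Elovl6 drops from 16.9 to 22.5 FPKM in untreated libraries to 4.50 to 4.92 with riebeckite asbestos, whereas Fads2 goes from 10.95 to 11.8 up to 19.9 to 22.8.

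Fatty acid members were called in both directions with each treatment. Without Acss2, and with riebeckite asbestos, 7 of 10 members were higher and 3 lower, with riebeckite fragments 5 and 3, with tremolite asbestos 2 and 4, and with tremolite fragments 2 and 4. The shares of all genes are those given above for the same comparisons (45.3%, 38.4%, 23.9% and 27.5% called in either direction). The median log2 fold change of the 10 was 0.23, 0.12, -0.06 and -0.01, with the medians of all genes as above. Under TMM rescaling, and likewise under quantile normalization, the tremolite fragment split was 4 higher and 4 lower, and under quantile normalization the tremolite asbestos split was 1 and 4. The summed level of all 11 measured members was 643 ± 10.9 FPKM (SD, n = 3) in untreated, 664 ± 9.99 in riebeckite asbestos, 654 ± 15.3 in riebeckite fragment, 611 ± 17.0 in tremolite asbestos and 609 ± 11.8 in tremolite fragment libraries, with no test.

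Acly and Acss2 supply cytosolic acetyl-CoA. Acly (ENSMUSG00000020917.17, chr11:100476353-100528000, minus strand), ATP citrate lyase, which makes cytosolic acetyl-CoA from citrate, was at 139, 148 and 142 FPKM in untreated libraries, 91.9, 92.9 and 96.4 with riebeckite asbestos, 93.9, 93.9 and 97.4 with riebeckite fragments, 117, 104 and 105 with tremolite asbestos and 95.2, 97.5 and 93.2 with tremolite fragments. All 12 treated libraries lay below the untreated ones. The falls were -0.60 ± 0.04 (SE, adjusted p = 9.4e-08), -0.58 ± 0.04 (SE, adjusted p = 1.9e-07), -0.40 ± 0.04 (SE, adjusted p = 1.6e-05) and -0.58 ± 0.04 (SE, adjusted p = 3.6e-07), to 65.5%, 66.4%, 75.9% and 66.6% of the untreated mean. Acss2 (chr2:155517948-155585724, plus strand), which makes acetyl-CoA from acetate, was low, at 0.288, 0.2797 and 0.328 FPKM in untreated libraries, 0.526, 0.589 and 0.756 with riebeckite asbestos, 0.582, 0.625 and 0.613 with riebeckite fragments, 0.333, 0.286 and 0.276 with tremolite asbestos and 0.237, 0.229 and 0.283 with tremolite fragments. The 6 riebeckite libraries lay above the other 9, and through them alone it passed the filter, so these values are a description. Its mean with riebeckite was 209% and 203% of untreated, and Acly was far more abundant by FPKM in every group. Acss2 exons overlap Gss, Ggt7 and an antisense RNA on the opposite strand by 395, 197 and 335 bases.

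Acaca (chr11:84129672-84401651, plus strand), acetyl-CoA carboxylase, which makes malonyl-CoA, was at 12.2, 12.4 and 11.96 FPKM in untreated libraries, 17.9, 16.9 and 16.9 with riebeckite asbestos, 16.3, 16.8 and 18.1 with riebeckite fragments, 12, 12.7 and 12.1 with tremolite asbestos and 13.3, 13.1 and 13.1 with tremolite fragments. The 6 riebeckite libraries exceeded the other 9. It rose by 0.47 ± 0.04 (SE, adjusted p = 8.2e-07) and 0.45 ± 0.04 (SE, adjusted p = 1.6e-06) with riebeckite. Fasn (ENSMUSG00000025153.9, chr11:120805846-120824547, minus strand), fatty acid synthase, was at 48.7, 48.5 and 43.1 FPKM in untreated libraries, 59.7, 54.2 and 55.7 with riebeckite asbestos, 49.9, 49.3 and 52.9 with riebeckite fragments, 39.03, 36.4 and 34.4 with tremolite asbestos and 36.04, 37.2 and 35.7 with tremolite fragments. It was the member called in opposite directions by mineral in the fatty acid list, up by 0.27 ± 0.06 (SE, adjusted p = 0.0018) with riebeckite asbestos and down at -0.35 ± 0.06 (SE, adjusted p = 0.00065) and -0.36 ± 0.06 (SE, adjusted p = 0.0004) with tremolite. With riebeckite fragments the value of 0.11 (adjusted p = 0.13) did not pass.

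Elovl6 had the largest absolute log2 fold change of the 37 measured members in each of the 4 treatments. Elovl6 (ENSMUSG00000041220.10, chr3:129532355-129638495, plus strand) elongates palmitate to stearate. Its level was 21.4, 22.5 and 16.9 FPKM in untreated libraries, 4.51, 4.92 and 4.500 with riebeckite asbestos, 6.16, 6.01 and 5.95 with riebeckite fragments, 11.1, 11.1 and 11.5 with tremolite asbestos and 9.19, 9.88 and 10.1 with tremolite fragments. The 5 groups did not overlap, in the order untreated, tremolite asbestos, tremolite fragments, riebeckite fragments and riebeckite asbestos. The falls were -1.90 ± 0.08 (SE, adjusted p = 8.2e-10), -1.58 ± 0.08 (SE, adjusted p = 6.9e-09), -0.79 ± 0.08 (SE, adjusted p = 1.2e-05) and -0.98 ± 0.08 (SE, adjusted p = 1.1e-06), which left 22.9%, 29.8%, 55.5% and 48% of the untreated mean. Elovl5 (chr9:77917364-77984519, plus strand), which elongates polyunsaturated fatty acids, was at 63.4, 63.2 and 64.2 FPKM in untreated libraries, 51.9, 52.7 and 54.2 with riebeckite asbestos, 57.3, 56.9 and 58.3 with riebeckite fragments, 56.4, 55.2 and 57.7 with tremolite asbestos and 55.4, 59.4 and 58.7 with tremolite fragments. Every treated library lay below every untreated library, with log2 fold changes of -0.26 ± 0.03 (SE, adjusted p = 1.4e-05), -0.14 ± 0.03 (SE, adjusted p = 0.0024), -0.17 ± 0.03 (SE, adjusted p = 0.0014) and -0.13 ± 0.03 (SE, adjusted p = 0.0051). Elovl1, which elongates saturated very long chains, was at 32.5 ± 1.13 FPKM in untreated and 36.8 ± 0.146 FPKM in riebeckite asbestos libraries. Its rise of 0.17 (adjusted p = 0.04) was lost under quantile normalization (adjusted p = 0.133) and summed transcripts (0.15). It was also lost without any of untreated replicates 1 (0.07), 2 (0.128) and 3 (0.0518), riebeckite asbestos replicates 1 (0.088), 2 (0.0757) and 3 (0.0797) or tremolite fragments replicate 3 (0.0503).

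Of the members called, Fads2 had the highest log2 fold change with both riebeckite preparations. Fads2 (chr19:10064164-10101503, minus strand), the delta-6 desaturase of polyunsaturated fatty acids, was at 11.2, 10.95 and 11.8 FPKM in untreated libraries, 22.8, 20.4 and 19.9 with riebeckite asbestos, 17.9, 18.96 and 18.8 with riebeckite fragments, 10.6, 14.3 and 12.8 with tremolite asbestos and 13.4, 13.8 and 12.7 with tremolite fragments. Each riebeckite library exceeded each other library. It rose by 0.83 ± 0.08 (SE, adjusted p = 2.8e-06) and 0.66 ± 0.08 (SE, adjusted p = 2.9e-05), to 185% and 164% of untreated, and the tremolite values of 0.13 (adjusted p = 0.3) and 0.21 (adjusted p = 0.069) did not pass. Fads1 (chr19:10182888-10196870, plus strand), the delta-5 desaturase, was at 28.6, 28.2 and 29.2 FPKM in untreated libraries, 43.7, 42.1 and 41.6 with riebeckite asbestos, 40.8, 41.6 and 43.6 with riebeckite fragments, 30.6, 33.5 and 32.4 with tremolite asbestos and 35.3, 35.3 and 35.04 with tremolite fragments. It rose with all 4 treatments, by 0.55 ± 0.04 (SE, adjusted p = 5.6e-08), 0.53 ± 0.04 (SE, adjusted p = 1.1e-07), 0.16 ± 0.04 (SE, adjusted p = 0.0058) and 0.29 ± 0.04 (SE, adjusted p = 5.3e-05).

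Scd1 (chr19:44394451-44407709, minus strand), the delta-9 desaturase that makes oleate, was at 86.2, 85.4 and 84.7 FPKM in untreated libraries, 109, 108 and 112 with riebeckite asbestos, 111, 114 and 119 with riebeckite fragments, 78.6, 82.9 and 80.3 with tremolite asbestos and 82.5, 86.5 and 84.4 with tremolite fragments. It rose with riebeckite, by 0.36 ± 0.03 (SE, adjusted p = 1.0e-06) and 0.42 ± 0.03 (SE, adjusted p = 3.3e-07), and the tremolite values of -0.08 (adjusted p = 0.078) and -0.02 (adjusted p = 0.74) did not pass. Its paralogue Scd2 (chr19:44293676-44306864, plus strand) was the most abundant of the 37 members by FPKM in untreated cells, at 201, 203 and 194 FPKM in untreated libraries, 225, 225 and 236 with riebeckite asbestos, 217, 211 and 224 with riebeckite fragments, 241, 226 and 220.2 with tremolite asbestos and 235, 235 and 222 with tremolite fragments. It rose by 0.20 ± 0.04 (SE, adjusted p = 0.0011), 0.12 ± 0.04 (SE, adjusted p = 0.023), 0.20 ± 0.04 (SE, adjusted p = 0.0021) and 0.21 ± 0.04 (SE, adjusted p = 0.0012). Quantile normalization ended the first 3 of these calls, at 0.02 (adjusted p = 0.654), -0.06 (0.25) and 0.11 (0.0533), with the sign turned for riebeckite fragments. The riebeckite fragment call was also lost without untreated replicate 3 (0.0886), riebeckite fragments replicate 1 (0.0526) or 3 (0.0834). Scd1 and Scd2 are similar in sequence, so reads may be split between them uncertainly.

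Over all 5 groups at once, the moderated F-test of limma called 16 of the 26 sterol members and 9 of the 10 fatty acid members other than Acss2, where it called 47.7% of all genes. The members not called were Mvk, Pmvk, Fdft1, Sqle, Dhcr7, Msmo1, Insig2, Srebf2, Mbtps1, Mbtps2 and Elovl1.

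The next comparison asked whether the habit of a mineral mattered at equal surface dose. For riebeckite, asbestos against fragments called 1 sterol member higher and 0 lower, where 6.71% and 3.85% of all genes were called (TMM rescaling moved the split of all calls from 63.5% to 46% higher). It was Acat2, at 0.27 ± 0.05 (SE, adjusted p = 0.0067), or 0.32 (adjusted p = 0.012) with Acat3 summed. With only these groups in the fit Acat2 did not pass (adjusted p = 0.0679). Of the fatty acid members 0 were higher and 2 lower, Elovl6 at -0.32 ± 0.08 (SE, adjusted p = 0.024) and Elovl5 at -0.12 ± 0.03 (SE, adjusted p = 0.028). The Elovl6 call was lost with summed transcripts (0.0848) and without riebeckite asbestos replicate 1 (0.0771) or 3 (0.0669) or riebeckite fragments replicate 1 (0.0651), 2 (0.062) or 3 (0.0512). The Elovl5 call was lost with only these groups (0.11), with no mean-variance trend (0.0553), and without riebeckite asbestos replicate 1 (0.0985) or 2 (0.0779) or riebeckite fragments replicate 1 (0.059), 2 (0.0587) or 3 (0.0814).

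For tremolite, asbestos against fragments called 0 sterol and 0 fatty acid members with limma, where 0.942% of all genes were called. At an unadjusted p under 0.05, where 10.9% of all genes were, there were 3 sterol members (Acat2, Hmgcs1 and Fdps) and 4 fatty acid members (Acly, Acaca, Elovl6 and Fads1), all named because the count is small. Acly came nearest, at 0.18 ± 0.04 (SE, adjusted p = 0.064), and 1 fatty acid member was called without tremolite asbestos replicate 2. The difference of Elovl6 was 0.19, with a 95% confidence interval of 0.02 to 0.36.

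The difference between these habit effects was tested directly, as the riebeckite difference minus the tremolite difference. It called Acat2 at 0.39 ± 0.07 (SE, adjusted p = 0.013) and Elovl6 at -0.51 ± 0.11 (SE, adjusted p = 0.026), 1 member of each list, where 3.93% of all genes were called (2.65% higher and 1.28% lower, 67.4% of calls higher, 50.3% under TMM rescaling). With Acat3 summed the Acat2 value was 0.38 (adjusted p = 0.049). The Elovl6 call was lost with summed transcripts (0.0535) and without riebeckite asbestos replicate 1 (0.0643) or 3 (0.0526), riebeckite fragments replicate 1 (0.0538) or 2 (0.0571), tremolite asbestos replicate 1 (0.0538) or 3 (0.0639), or tremolite fragments replicate 1 (0.0658) or 2 (0.0559).

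The minerals were then compared within each habit. Between the asbestos preparations, 14 sterol members were higher with riebeckite than with tremolite and 0 lower (all genes, 15.5% and 11.0%). Between the fragments, 11 were higher and 0 lower (all genes, 5.31% and 6.01%, and TMM rescaling moved the split of all calls from 46.9% to 58.4% higher). Libraries did not overlap for 15 and 14 of the 26 sterol members, where 40.6% and 32.0% of all genes did not. The median log2 difference of the sterol members was 0.18 and 0.24, beside 0.01 and -0.02 over all genes. Of the 10 fatty acid members other than Acss2, 6 were higher and 3 lower between asbestos preparations, and 5 higher and 1 lower between fragments, with medians of 0.31 and 0.17. Quantile normalization gave 5 higher and 2 lower between fragments.

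These comparisons use different libraries, although their variances come from the same fit. The sterol members higher in both were 10, Acat2, Cyp51, Fdps, Hsd17b7, Idi1, Lss, Mvd, Nsdhl, Sc5d and Srebf1, which is 71.4% of the asbestos calls and 90.9% of the fragment calls. The fatty acid members higher in both, Acss2 left out, were 5, Acaca, Fads1, Fads2, Fasn and Scd1 (83.3% and 100%), and Elovl6 was lower in both. Over all genes, 422 were higher in both, 25.7% of 1645 and 74.8% of 564, and 366 were lower in both, 31.3% of 1171 and 57.4% of 638.

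In size, Acat2 differed between the minerals by 0.79 ± 0.05 (SE, adjusted p = 7.1e-07) as asbestos and 0.40 ± 0.05 (SE, adjusted p = 0.00037) as fragments. Fasn differed by 0.61 ± 0.06 (SE, adjusted p = 7.2e-06) and 0.47 ± 0.06 (SE, adjusted p = 0.0002), and Fads2 by 0.71 ± 0.08 (SE, adjusted p = 4.7e-05) and 0.45 ± 0.08 (SE, adjusted p = 0.0036). Scd1 differed by 0.44 ± 0.03 (SE, adjusted p = 1.3e-06) and 0.44 ± 0.03 (SE, adjusted p = 3.6e-06). Elovl6 was lower with riebeckite, at -1.12 ± 0.08 (SE, adjusted p = 1.1e-06) and -0.61 ± 0.08 (SE, adjusted p = 0.00036). Idi1, which fell with every treatment, was still higher with riebeckite than tremolite, at 0.19 ± 0.04 (SE, adjusted p = 0.0038) and 0.26 ± 0.04 (SE, adjusted p = 0.0011). Insig1 and Stard4, which also fell with every treatment, did not pass between the minerals. The intervals for Insig1 were -0.15 to 0.07 and -0.11 to 0.11, and those for Stard4 were -0.07 to 0.13 and -0.07 to 0.13.

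Some calls between the minerals were lost without single libraries or under other settings. Fdft1 at 0.66 (adjusted p = 0.035) between fragments was lost without riebeckite fragments replicate 1 (0.117) or 2 (0.108) or tremolite fragments replicate 1 (0.0871), 2 (0.0871) or 3 (0.0824). Scap at 0.18 (adjusted p = 0.033) was lost without riebeckite asbestos replicate 1 (0.134) or 3 (0.0801) or tremolite asbestos replicate 1 (0.0532), 2 (0.0614) or 3 (0.105). Elovl1 at 0.22 (adjusted p = 0.021) was lost without riebeckite asbestos replicate 1 (0.0595) or 3 (0.051) or tremolite asbestos replicate 3 (0.0919). Elovl5 at -0.09 (adjusted p = 0.043) was lost without any of 10 libraries, with adjusted p of 0.0504 to 0.144. Mvd at 0.23 (adjusted p = 0.002) between fragments was lost with summed transcripts (0.159). Lss at 0.27 (adjusted p = 0.0073) between asbestos preparations turned to -0.37 (adjusted p = 0.633) with summed transcripts. With only those groups in the fit it was not called (0.0607). Between fragments the Lss call was also lost with summed transcripts (0.726). Summed transcripts further ended the asbestos calls of Tm7sf2 (0.225), Elovl1 (0.108), Scap (0.096) and Elovl5 (0.055). Scap was also lost under quantile normalization (0.058) and with only the groups compared (0.08). For Elovl5 the call was lost with only those groups (0.115) and with no trend (0.0761).

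**Figure D3:**
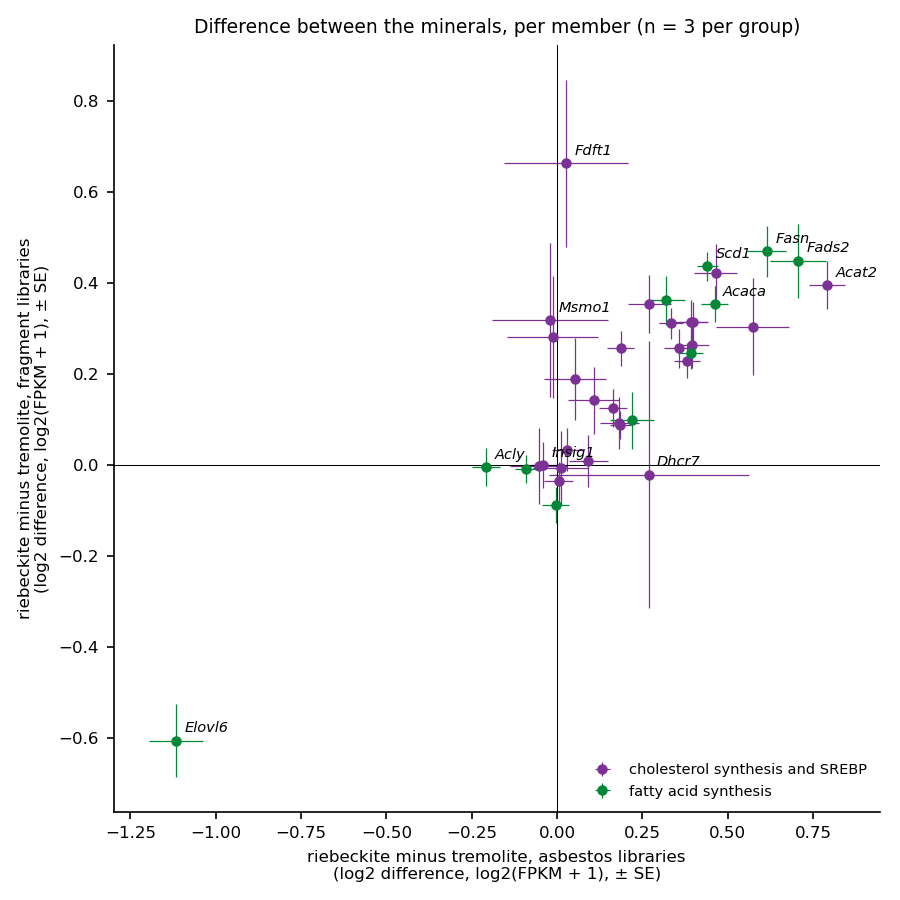
Difference between the minerals for each of the 37 members, as asbestos (horizontal) and as fragments (vertical), in log2(FPKM + 1) with standard errors (n = 3 per group). Most sterol and fatty acid members lie in the upper right, with Acat2 at 0.79 and 0.40 and Fads2 at 0.71 and 0.45, and Elovl6 stands alone at the lower left, at -1.12 and -0.61.

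Transcript values were examined for members with more than 1 listed transcript. The deposited transcript values sum to a median of 1.23 times the gene value, so levels are not comparable across both tables. Called in either direction were 13.0% of the 22038 tested transcripts with riebeckite asbestos, 10.3% with riebeckite fragments, 5.02% with tremolite asbestos and 6.29% with tremolite fragments. Srebf1 is transcribed from the minus strand of chromosome 11 and had 3 tested transcripts, Srebf1-201 with its start at 60220604, Srebf1-207 with its start at 60210465, and the shorter Srebf1-203 with its start at 60207188. Srebf1-207 was at 2.29, 2.42 and 2.42 FPKM in untreated libraries, 4.68, 4.999 and 4.48 with riebeckite asbestos and 4.61, 4.41 and 5.05 with its fragments, and at 3.498, 2.23 and 3.497 and 2.47, 3.47 and 1.75 with tremolite asbestos and fragments. It rose by 0.76 ± 0.17 (SE, adjusted p = 0.011) and 0.75 ± 0.17 (SE, adjusted p = 0.013) with riebeckite. Srebf1-203 rose by 0.43 ± 0.09 (SE, adjusted p = 0.0070) and 0.39 ± 0.09 (SE, adjusted p = 0.015). Srebf1-201 rose by 0.43 ± 0.11 (SE, adjusted p = 0.022) with riebeckite asbestos, and its value of 0.23 (adjusted p = 0.25) with fragments did not pass. No difference between these transcripts was tested.

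The dominant Acly transcript, Acly-207, was at 158, 168 and 163 FPKM in untreated and 105, 106 and 109.6 in riebeckite asbestos libraries, a fall of 0.61 on the log2 scale (adjusted p = 1.6e-06). Elovl6-201 was at 21.9, 22.8 and 17.01 FPKM in untreated and 4.42, 4.800 and 4.23 in riebeckite asbestos libraries, and it was the most abundant of the Elovl6 transcripts tested. Other members had transcript values that switched between libraries of 1 group. Dhcr7-201 was listed at 43.5, 0 and 13.3 FPKM in the riebeckite asbestos libraries, and Dhcr7-202 at 0, 44.6 and 0. Fasn-205 was listed at 0, 0 and 28.4 in untreated libraries, although the gene value of Fasn there spanned only 43.1 to 48.7 FPKM. Lss-201 was listed at 2.75, 19.7 and 20.8 with riebeckite asbestos and between 13.7 and 18.8 in all untreated, riebeckite fragment and tremolite libraries. A value of 0 in this table can be a failed estimate, and no fold change is given for these transcripts.

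**Figure D4:**
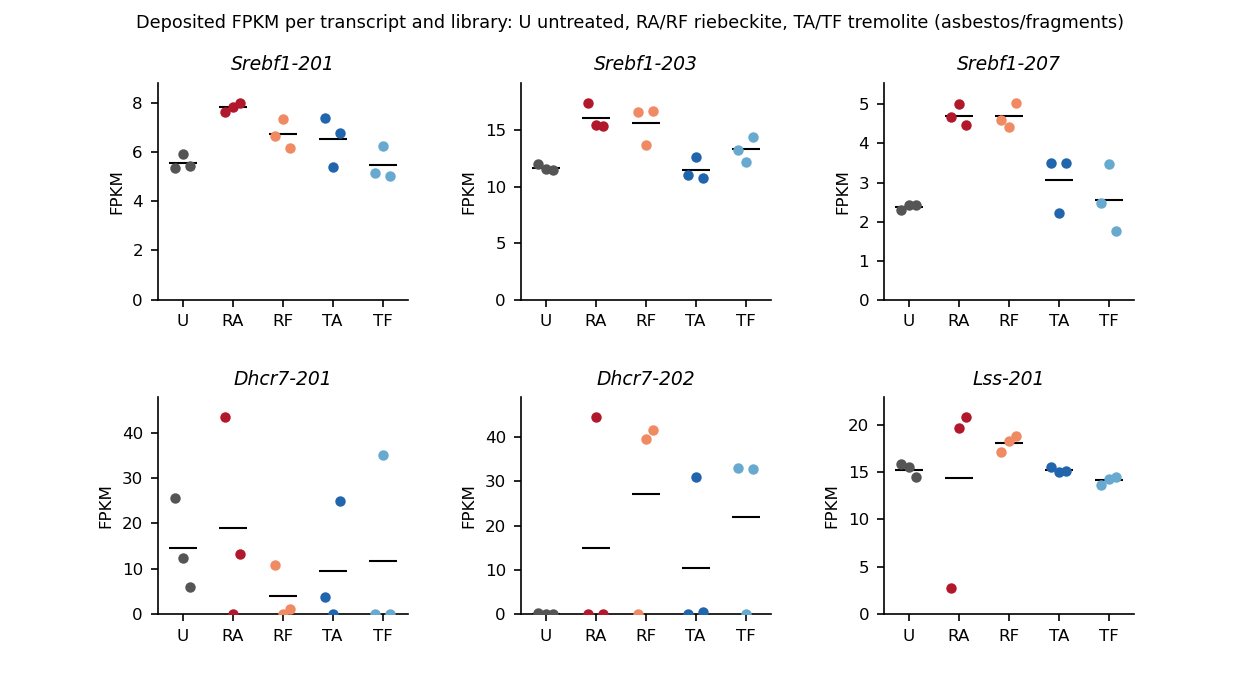
Deposited FPKM of 6 transcripts in each of the 15 libraries, with axes from 0; points are libraries and bars the group means (n = 3). U is untreated, RA and RF riebeckite asbestos and fragments, TA and TF tremolite asbestos and fragments. The Srebf1 transcripts are tight within most groups, whereas Dhcr7-201 and Dhcr7-202 swing between 0 and over 40 FPKM within the riebeckite asbestos group and Lss-201 has 1 riebeckite asbestos library at 2.75.

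Other genes around both pathways were counted from lists of their own. Of 15 measured genes of side branches and electron supply of sterol synthesis, 5 were higher and 2 lower with riebeckite asbestos, 5 and 3 with riebeckite fragments, 3 and 3 with tremolite asbestos and 3 and 3 with tremolite fragments. Called in either direction were thus 46.7%, 53.3%, 40% and 40% of them, where 45.3%, 38.4%, 23.9% and 27.5% of all genes were. The shares of all genes by direction are those given for the members. Cyb5r3, the cytochrome b5 reductase that feeds electrons to sterol and fatty acid desaturases, was at 40.4, 40.99 and 40.3 FPKM in untreated and 63.9, 64.5 and 63.2 in riebeckite asbestos libraries. It rose with all 4 treatments, by 0.64 ± 0.03 (SE, adjusted p = 1.7e-09), 0.53 ± 0.03 (SE, adjusted p = 1.6e-08), 0.27 ± 0.03 (SE, adjusted p = 1.8e-05) and 0.35 ± 0.03 (SE, adjusted p = 1.6e-06). Por, the reductase that serves Cyp51, rose with all 4, by 0.43, 0.46, 0.26 and 0.36 (adjusted p at most 0.00028). Lbr, the lamin B receptor with sterol reductase activity, fell with all 4, at -0.53, -0.52, -0.66 and -0.65 (adjusted p at most 2.6e-05), and the call with riebeckite fragments was lost with summed transcripts (0.0854). Nus1, a subunit of the dolichol-chain synthase, rose by 0.28 (adjusted p = 8.7e-06) with riebeckite asbestos. This was not particular to that treatment, since every treated library lay above every untreated library. The Nus1 means were 58.5 FPKM in untreated, 71.3 and 69.1 in riebeckite asbestos and fragment, and 65.5 and 66.3 in tremolite asbestos and fragment libraries. Aacs, which activates acetoacetate, fell with tremolite asbestos, at -0.34 (adjusted p = 0.00013). Its level was as low with tremolite fragments, with means of 16.9 and 16.8 FPKM against 21.7 in untreated libraries. The riebeckite fragment libraries (mean 19.2 FPKM) also lay below all untreated ones, while those of riebeckite asbestos (mean 20.8 FPKM) overlapped them.

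Of 21 measured genes of sterol sensing, storage and turnover, 8 were higher and 1 lower with riebeckite asbestos, 5 and 1 with riebeckite fragments, 5 and 1 with tremolite asbestos and 4 and 1 with tremolite fragments. These are 42.9%, 28.6%, 28.6% and 23.8% of them, beside 45.3%, 38.4%, 23.9% and 27.5% of all genes. Nceh1, a cholesteryl ester hydrolase, rose with all 4 treatments, by 0.26, 0.44, 0.24 and 0.36 (adjusted p at most 0.00045). Soat1, which esterifies cholesterol for storage, rose by 0.14 (adjusted p = 0.002) with riebeckite asbestos, 0.29 (adjusted p = 9.5e-06) with riebeckite fragments, 0.19 (adjusted p = 0.00056) with tremolite asbestos and 0.18 (adjusted p = 0.00068) with tremolite fragments. Nr1h3, the liver X receptor alpha, rose by 0.34 (adjusted p = 6.3e-05) and 0.32 (adjusted p = 0.00012) with riebeckite. Lipa, the lysosomal acid lipase, fell with riebeckite asbestos, at -0.24 (adjusted p = 0.00013), and with tremolite fragments, at -0.20 (adjusted p = 0.0012). Its fall of -0.16 (adjusted p = 0.006) with tremolite asbestos was lost under TMM rescaling (0.0619) and with only these groups in the fit (0.0571).

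Of 30 measured genes of fatty acid activation, elongation partners, transport and glycerolipid synthesis, Fads3 passed the filter only through the untreated libraries and is left out of the counts. Of the other 29, 13 were higher and 5 lower with riebeckite asbestos, 7 and 5 with riebeckite fragments, 4 and 7 with tremolite asbestos and 6 and 8 with tremolite fragments. These are 62.1%, 41.4%, 37.9% and 48.3% of them, beside 45.3%, 38.4%, 23.9% and 27.5% of all genes. Fabp4, a fatty acid carrier, was at 97.4, 93.8 and 95.8 FPKM in untreated, 32.8, 34.9 and 32.6 in riebeckite asbestos, 43.5, 38.4 and 38.9 in riebeckite fragment, 60.7, 56.1 and 65.3 in tremolite asbestos and 46.1, 46.8 and 52.03 in tremolite fragment libraries. No treated library reached the untreated level, and the falls were -1.49 ± 0.06 (SE, adjusted p = 8.3e-10), -1.23 ± 0.06 (SE, adjusted p = 7.6e-09), -0.65 ± 0.06 (SE, adjusted p = 7.5e-06) and -0.97 ± 0.06 (SE, adjusted p = 1.3e-07). Hacd4, a dehydratase of the elongation cycle, fell with all 4 treatments, at -0.63 ± 0.04 (SE, adjusted p = 1.4e-08) with riebeckite asbestos, -0.25 (adjusted p = 0.00012) with riebeckite fragments, -0.30 (adjusted p = 5.1e-05) with tremolite asbestos and -0.39 (adjusted p = 3.3e-06) with tremolite fragments. The acyl-CoA synthetases Acsl3 and Acsl4, which activate long-chain and arachidonic acids, rose with all 4 treatments. For Acsl3 the values were 0.82, 0.68, 0.31 and 0.36 (adjusted p at most 0.00063). For Acsl4 they were 0.56, 0.49, 0.32 and 0.37 (adjusted p at most 0.00011).

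Over these 3 lists together, 12 of these 65 genes (18.5%) were called between riebeckite asbestos and fragments, where 10.6% of all genes were, and 1 (1.54%) between tremolite asbestos and fragments, where 0.942% of all genes were. That gene was Fabp4 at 0.32 (adjusted p = 0.027). The Fabp4 call was lost with only those groups in the fit (0.146) and without tremolite asbestos replicate 1 (0.0988) or 3 (0.123) or tremolite fragments replicate 1 (0.125) or 2 (0.127). Between the minerals, 29 (44.6%) were called as asbestos and 16 (24.6%) as fragments, where 26.5% and 11.3% of all genes were. The count of 12 fell to 7 without riebeckite fragments replicate 1. That of 16 fell to 10 without riebeckite fragments replicate 1 and to 9 without tremolite fragments replicate 1, 2 or 3. Lpcat3, which places polyunsaturated chains into phospholipids, was higher with riebeckite in both habits, at 0.38 (adjusted p = 1.0e-05) and 0.24 (adjusted p = 0.00093).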

How the data were processed

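RNA of 15 libraries (5 groups of 3) was enriched with oligo(dT) beads and sequenced from dUTP-marked libraries, per the labels' protocols. The submitters' processing notes name cutadapt, HISAT2, StringTie and the build GRCm38, with no versions. The deposited gene table (10653 genes) and transcript table (22795 transcripts) were read as FPKM, a unit inferred from the values and from StringTie, so the authors' counts and depth are unknown. FPKM + 1 was log2-transformed, those reaching 0.5 FPKM in 3 or more libraries were kept (10616 genes, 22038 transcripts), and limma 3.58.1 in R 4.3.3 was fitted to all 15 libraries (eBayes on the contrasts, with a trend of variance on level), with Benjamini-Hochberg adjustment within each comparison and a threshold of 0.05. SEs and intervals come from this fit, and the 95% level was used. Of 9 comparisons, 4 set a treatment against untreated cells, 2 asbestos against fragments, 2 mineral against mineral, and 1 the difference between habit effects. TMM factors were computed with a function written for this purpose, since the count tools were not applied to FPKM. The fit was tested on simulated data.

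The members and lists were chosen with earlier results of these data known. Values in every library are given for up to 6 sterol and 6 fatty acid members per comparison with the smallest p among those called, and for Srebf1, Srebf2, Scap, Insig1 and Insig2. Of the other pathway genes, up to 3 per list and comparison with the smallest p among those called are named, and some genes this rule takes are not reported here. Positions are those of the deposited table. Same-numbered samples of different groups deviated together weakly at most (see the closing section), so no replicate block was used in the main fit. Alternatives were TMM and quantile scaling, another pseudocount, other filters, a replicate block, only the groups compared, no trend, summed transcripts, and leaving out each library. Leaving out of list counts the genes that passed the filter only through some groups (Acss2 and Fads3) was chosen after seeing the data.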

Additional observations from a re-analysis of the deposited data

Results flagged for a closer look

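In 7 genes the effect of habit (asbestos minus fragments) differed between riebeckite and tremolite by the direct test of that difference. They were 1 of 26 sterol members (3.85%), 1 of 10 fatty acid members (10%) and 5 of 65 genes of the 3 other lists (7.69%). Of all genes 3.93% were called, so the sterol share was near that of all genes. Of the members, Acat2 had a difference of 0.39 (adjusted p = 0.013) on the log2 scale and Elovl6 one of -0.51 (adjusted p = 0.026). For Acat2 the habit effect was 0.27 with riebeckite and -0.13 with tremolite, and for Elovl6 it was -0.32 and 0.19. Of the other pathway genes, the difference was 0.19 (adjusted p = 0.027) for Cyb5r3, -0.23 (adjusted p = 0.028) for Lipa, -0.48 (adjusted p = 0.00087) for Hacd4, -0.58 (adjusted p = 0.0046) for Fabp4, and 0.35 (adjusted p = 0.02) for Agpat4, which encodes an acyltransferase of phosphatidic acid synthesis. The calls of 4 of these genes were lost without single libraries. For Elovl6 these were riebeckite asbestos replicate 1 or 3, riebeckite fragments replicate 1 or 2, tremolite asbestos replicate 1 or 3 and tremolite fragments replicate 1 or 2 (adjusted p 0.0526 to 0.0658). For Cyb5r3 these were riebeckite asbestos replicate 1 or 2, riebeckite fragments replicate 1 or 2, tremolite asbestos replicate 3 and tremolite fragments replicate 1 or 2 (adjusted p 0.0566 to 0.069). For Lipa they were riebeckite asbestos replicate 1 or 2, riebeckite fragments replicate 1 or 2, tremolite asbestos replicate 1 or 3 and any tremolite fragments replicate (0.0533 to 0.0744). For Agpat4 they were riebeckite asbestos replicate 1, riebeckite fragments replicate 2, tremolite asbestos replicate 3 and tremolite fragments replicate 1 or 2 (0.0527 to 0.0544). Calls were also lost under other settings, for Elovl6 with summed transcripts (0.0535), for Cyb5r3 under TMM rescaling (0.0524), with only the groups compared (0.0534) and with no trend (0.0575), for Lipa under quantile normalization (0.139) and with no trend (0.0539), and for Agpat4 under quantile normalization (0.058).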

How the results depend on the processing

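The 3 libraries per group and the unknown depth limit what small differences can be told. With all libraries in the fit, 1121 genes were called between riebeckite asbestos and fragments, 100 between tremolite asbestos and fragments, 1202 between the fragments and 417 for the habit difference, and 12, 1, 16 and 5 of the other pathway genes. With only the groups compared in the fit, the genes called were 275 between riebeckite asbestos and fragments, 29 between tremolite asbestos and fragments, and 676 between fragments of the 2 minerals. With summed transcripts they were 657, 43 and 730, and 198 for the habit difference. Sterol members called between riebeckite asbestos and fragments were 2 with a mean of at least 5 FPKM and 0 with only the groups compared, and fatty acid members were 1 with only the groups compared and 1 with no trend. Fatty acid members of the habit difference were 2 with TMM rescaling and 0 with summed transcripts. TMM rescaling gave summed levels of 672.4 FPKM for sterol members with riebeckite fragments and 631.7 FPKM for fatty acid members in untreated cells. Other pathway genes called were 3 and 7 between riebeckite asbestos and fragments with only those groups and with summed transcripts, 0 between tremolite asbestos and fragments with only those groups, 7 and 8 between the fragments, and 3 for the habit difference with no trend. Lss turned to -0.37 with riebeckite asbestos against both untreated and tremolite asbestos with summed transcripts, and Scd2 to -0.058 with riebeckite fragments under quantile normalization; the cause was not tested.

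Leaving out single libraries gave 644 to 1101 genes between riebeckite asbestos and fragments, 31 to 110 between tremolite asbestos and fragments, 717 to 1186 between the fragments and 210 to 425 for the habit difference. Among fatty acid members the ranges were 0 to 2, 0 to 1 and 0 to 2 for riebeckite habit, tremolite habit and their difference, and among sterol members 1 to 2 for riebeckite habit. Among other pathway genes they were 7 to 12, 0 to 1, 9 to 15 and 2 to 7 in the same order. Of 5370 settings over 286 results for single genes or single transcripts, 5193 were counted as unchanged. The transcript results were run only with the other pseudocount, and the gene results under many more settings. By this rule a change of sign also counted as unchanged where neither fit called the gene. Of 252 called results, genes and transcripts together, 210 kept their direction and stayed called under every setting run for them. Because the transcripts had so few settings, this share does not measure how firm the gene calls alone are.

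Same-numbered samples correlated at -0.06 to 0.17 in their deviations (30 pairs, median 0.02, 3 pairs above 0.1). Differently numbered samples of different groups correlated at -0.126 to 0.106. Of 15 samples, 9 correlated best with their own number, so these values do not settle whether the samples are weakly paired. With the replicate number as a block, sterol members called against untreated cells were 14 for riebeckite fragments and 7 for tremolite asbestos, and 12 were called between fragments of the minerals, while the fatty acid counts did not change.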

Other observations

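Ratios between paralogues were read from the FPKM of each library, after their values were seen and with no test. The ratio of Scd2 to Scd1 was 2.29 to 2.37 in untreated, 2.07 to 2.10 in riebeckite asbestos and 1.86 to 1.95 in riebeckite fragment libraries, and 2.73 to 3.07 and 2.63 to 2.85 in tremolite asbestos and fragment libraries. The riebeckite libraries thus lay below the untreated ones and the tremolite libraries above. The ratio of Elovl6 to Elovl5 was 0.263 to 0.356 in untreated, 0.0831 to 0.0932 in riebeckite asbestos, 0.102 to 0.108 in riebeckite fragment, 0.197 to 0.201 in tremolite asbestos and 0.166 to 0.171 in tremolite fragment libraries, with no overlap between groups.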
